A study of Canis lupus familiaris with 27 samples.

Results

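The interleukins and interleukin receptors described here are all genes whose symbol on the array begins with IL and a digit, and 78 of the 15115 genes measured met this rule. They were chosen by name and not by any measured value. The 78 genes are 34 ligands, 43 receptor chains, receptor antagonists and binding proteins, and IL4I1, an enzyme that shares only the name. The array carries 119 probe sets for them, and where a gene had several, the brightest on average stood for it. Interleukin 8 is annotated as CXCL8 and was not included.

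RNA was measured in 27 simple mammary carcinomas of 27 dogs on Affymetrix Canine Genome 2.0 arrays. The metastatic group held 13 tumors (dogs 1 to 13) with lymph node metastases at resection, 7 of grade III and 6 of grade II, from dogs of 9 to 16 years. The non-metastatic group held 14 tumors (dogs 14 to 27) with negative lymph nodes, 9 of grade III and 5 of grade II, from dogs of 9 to 15 years. All tumors grew invasively, were labelled estrogen receptor negative, and were macrodissected to enrich carcinoma cells. The non-metastatic tumors were selected for size: tumor diameter was 2.42 ± 1.32 cm in the metastatic and 5.21 ± 3.53 cm in the non-metastatic group (mean ± SD). The dogs were of many breeds, with mixed breeds in 2 of the 13 metastatic and 6 of the 14 non-metastatic dogs, and each tumor was a single array. All values below are log2 signals, so that a difference of 1 is a doubling of the signal, and levels of different genes cannot be compared because each probe set binds with its own strength.

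Interleukins are secreted proteins through which leukocytes, epithelial cells and stromal cells instruct each other. Most bind a receptor built of a chain that recognizes the ligand and a chain that several ligands share, such as gp130 (IL6ST), the common gamma chain (IL2RG) or IL10RB, and these receptors signal through Janus kinases and STAT transcription factors. The interleukin 1 and interleukin 17 families use other receptors that lead to NF-kappaB, and several receptors are held in check by decoys (IL1R2, IL13RA2, IL22RA2), by an antagonist (IL1RN) or by a binding protein (IL18BP). In carcinoma tissue the transcripts can come from the carcinoma cells and from the leukocytes, fibroblasts and vessels among them.

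All 8 measured epithelial markers of the list used (keratins, EPCAM and others) reached the median signal of the arrays in at least 1 tumor. So did all genes of the myeloid, endothelial and fibroblast lists, so this cannot show the identity of the tissue. The mean level of the epithelial markers was 10.30 ± 1.20 in the metastatic and 10.23 ± 1.51 in the non-metastatic tumors. Of these markers 1, KRT17, was lower in the metastatic tumors (-2.88; limma, adjusted p = 0.0391) and 0 were higher. Dog 22 stood apart, with the lowest epithelial level of all tumors (5.73) and the highest level of the T and NK cell list (7.73), and this dog later developed lung metastases. With dogs 14 and 22 left out together, 8 of the 9 members found to differ between the groups still passed and IL23R did not. Of 19 mitosis genes 18 were higher in the metastatic tumors, and of 11 smooth muscle genes 5 were lower and 0 higher. The upper quartile of an array's values was 7.93 ± 0.04 in the metastatic and 7.76 ± 0.15 in the non-metastatic group, and the difference between the 3′ and 5′ control probe sets of GAPDH was 1.84 ± 0.32 in the metastatic and 1.32 ± 0.42 in the non-metastatic group. The sample names of 11 metastatic and 0 non-metastatic tumors end in T, and what the ending stands for is not given in the sources used here. In tumor tissue fewer cells of a type and less RNA per cell cannot be told apart.

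Many interleukin transcripts gave little signal in these carcinomas. Of the 78 members, 33 (42.3%) stayed below 3.66, the median of all values on the arrays, in every tumor, against 27.5% of all genes. These 33 included the T cell cytokines IL4, IL13, IL17A, IL17F and IL22, the regulatory cytokine IL10, and the receptor chains IL4R, IL6R, IL10RA and IL21R. Among the ligands 18 of 34 stayed below this level, and among the receptors, antagonists and binding proteins 15 of 43. By family the share ran from 3 of 18 in the interleukin 1 family and 4 of 15 in the common gamma chain family to 8 of 12 in the interleukin 10 family, 4 of 6 in the interleukin 12 family and 3 of 4 in the beta chain family. IL13, IL13RA1 and IL13RA2 are counted in the common gamma chain family here, although they do not use that chain. For such genes a missing transcript and a poorly binding probe set cannot be told apart.

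Only 13 members reached the median signal in all 27 tumors. They were the cytokines IL15, IL17B, IL18, IL33 and IL34, the antagonist IL1RN, the binding protein IL18BP, and the receptor chains IL10RB, IL13RA1, IL17RA, IL17RD, IL17RE and IL27RA. A further 9 members reached it in 1 tumor each, namely IL2, IL2RG, IL5, IL12A, IL12B, IL18R1, IL18RAP, IL1F10 and IL36RN, and the other 23 in some of the tumors. IL5, the growth factor of eosinophils, was at 5.19 in dog 6 and between 2.43 and 3.01 in all other tumors. The other IL5 probe set did not show this peak: it reached at most 3.29 in any tumor and had a correlation of 0.23 with the one used. IL12A, a subunit of interleukin 12, reached 4.93 in dog 11, followed by 3.33 in dog 9.

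High values of different members fell together in a few tumors. How often these tumors held the highest value over all genes was not counted, so the counts below cannot be called particular to the members. Over all 78 members the highest value lay most often in dog 22 of the non-metastatic group, with 17 members, followed by the metastatic dogs 3 and 5 with 9 and 7 and the non-metastatic dog 23 with 6. Of the 17 members highest in dog 22, 14 stayed below the median signal in every tumor, IL10 and IL17A among them, and the upper quartile of this array ranked 3 from the lowest of the 27. Among the 36 members that reached the median signal in at least 2 tumors, dogs 3 and 5 held the highest value for 5 each and dog 12 for 4, and no non-metastatic tumor for more than 3. In dog 3 these were IL2RA and IL2RB, chains of the interleukin 2 receptor, together with IL15, IL1RAP and IL10RB, while IL2RG and IL18RAP reached the median signal in this tumor alone. In dog 5 they were IL33 and its receptor IL1RL1, the decoy IL13RA2 (9.06, with a median of 3.25 in the metastatic and 3.34 in the non-metastatic tumors), IL15RA and IL18BP. In dog 12 they were IL1B, IL6ST, IL13RA1 and IL22RA2.

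**Figure D1:**
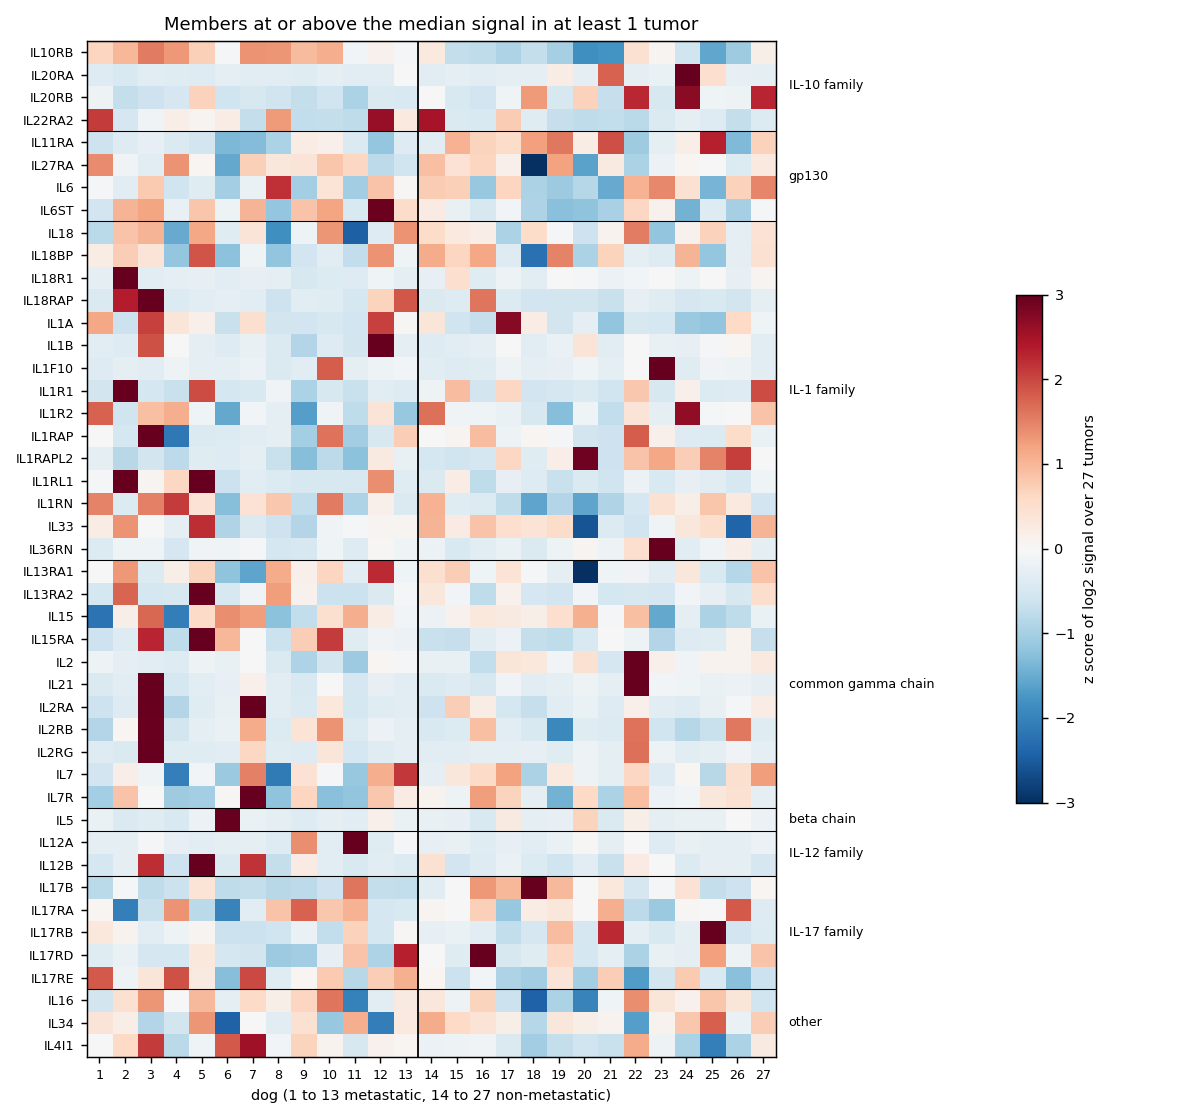
Heat map of the 45 members that reached the median signal in at least 1 tumor, with 1 column per dog (metastatic dogs 1 to 13 on the left, non-metastatic dogs 14 to 27 on the right) and rows grouped by cytokine family. Colour gives the z score of the log2 signal over the 27 tumors, clipped at 3; dark red cells are most frequent in dogs 3, 5 and 12 and fill no whole group, while IL10RB is mostly red on the left and blue on the right.

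Comparing metastatic with non-metastatic carcinomas, 3 members were higher in the metastatic tumors (IL10RB, IL6ST and IL4I1) and 6 were lower (IL11RA, IL1RAPL2, IL22, IL5RA, IL23R and IL1RAPL1) at an adjusted p of 0.05 with limma, which fits every probe set and adjusts over all 15115 genes. The other 69 did not pass. Of the members 3.85% were thus higher and 7.69% lower, against 10.6% and 7.27% of all genes. Of the 41 other probe sets of the members 9 passed over all probe sets, and 5 of these belong to members not called: those of IL17RB, IL18BP and IL3 had the sign of the brightest one, and those of IL1B and IL22RA2 the opposite sign. The median difference was -0.03 over the members and -0.002 over all genes. An unadjusted p under 0.05 was found for 18 members, against 34.4% of all genes. Among the 45 members that reached the median signal, 3 were higher and 2 lower, against 14.5% higher and 7.21% lower of the 10952 genes that did so. No ligand was higher and 1 of 34 (IL22) was lower, while 2 of the 43 receptors, antagonists and binding proteins were higher and 5 were lower. Groups that did not overlap at all were seen for 9 genes (0.0595%) and for 0 members. The stricter thresholds of the study (adjusted p 0.001, fold 1.7) were also applied to the limma fit, with adjustment over all probe sets. There 0.597% of all probe sets were higher and 0.59% lower, and IL10RB was the 1 member among them. The study itself used ANOVA with q-values, and these shares are not its own counts.

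**Figure D2:**
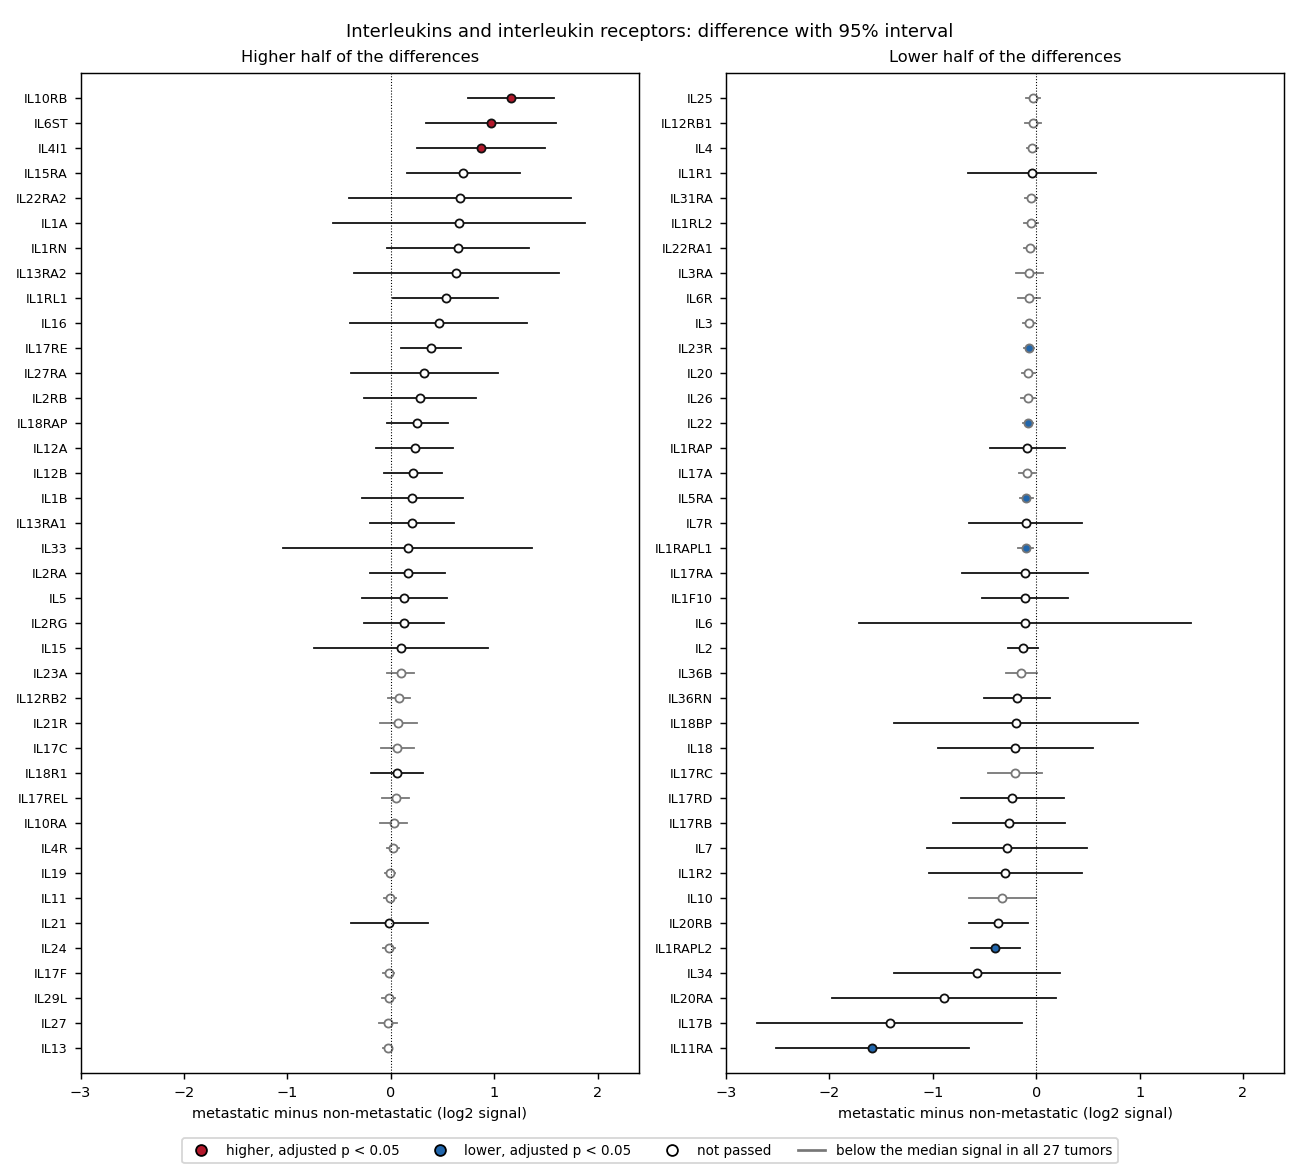
Difference of metastatic minus non-metastatic tumors in log2 signal for all 78 members, ordered by size in 2 panels, with the 95% interval of the limma fit. Filled circles mark the 3 members higher (red) and 6 lower (blue) at an adjusted p of 0.05, and grey lines the 33 members below the median signal in all tumors, whose differences lie between -0.33 and 0.09.

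The clearest difference was in IL10RB, the receptor chain shared by interleukins 10, 22 and 26 and by the lambda interferons. Its log2 signal ran from 9.34 over a median of 10.15 to 10.63 in the metastatic tumors, and from 7.95 over 8.83 to 9.76 in the non-metastatic tumors. All 13 metastatic tumors lay above the non-metastatic median and 9 above every non-metastatic tumor, while 4 non-metastatic tumors (dogs 14, 22, 23 and 27) reached into the metastatic range. The means were 10.00 ± 0.47 in metastatic and 8.84 ± 0.59 in non-metastatic tumors (SD, n = 13 and 14), a difference of 1.16 (SE 0.20), or 2.24-fold (limma, adjusted p = 0.000681). The 2 other probe sets of the gene gave differences of 0.95 and 0.86 (limma, adjusted p over all probe sets 0.00751 and 0.00738). Leaving out single tumors kept the difference between 1.09 and 1.23, and it passed in all 27 of these fits. With the sample name ending as a block, where the contrast rests on dogs 1 and 8, it was 1.34 but no longer passed (limma, adjusted p = 0.232).

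None of the ligands that use IL10RB were higher in metastatic tumors. IL22, a cytokine of T cells and innate lymphoid cells that acts on epithelia, and IL26 stayed below the median signal in every tumor. IL10 itself ran from 2.07 over 2.18 to 3.30 in metastatic and from 2.16 over 2.56 to 3.61 in non-metastatic tumors, with a difference of -0.33 (SE 0.16; limma, adjusted p = 0.145). IL10RA, the chain that pairs with IL10RB for interleukin 10, differed by 0.03 (limma, adjusted p = 0.79). IL22RA2, a secreted decoy for interleukin 22, was above 6 in dogs 12 and 1 of the metastatic and in dog 14 of the non-metastatic group, and its difference of 0.67 did not pass (limma, adjusted p = 0.368). Its other probe set, which stayed below the median signal with at most 3.41, differed by -0.25 (limma, adjusted p over all probe sets 0.00398). The 2 chains of the interleukin 20 receptor were lower on average without passing: IL20RB differed by -0.36 (limma, adjusted p = 0.0644) and IL20RA by -0.89 (limma, adjusted p = 0.232). IL20RA lay between 2.77 and 3.42 in all metastatic tumors, whereas dogs 24, 21 and 25 of the non-metastatic group reached 9.93, 5.97 and 4.15.

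IL11RA and IL6ST, chains of the gp130 receptor family, differed between the groups in opposite directions. Over the tumors they were not correlated detectably (r = -0.40, permutation adjusted p = 0.128). IL11RA, the chain that recognizes interleukin 11, ran from 2.62 over 3.94 to 4.88 in the metastatic tumors, and from 2.66 over 5.43 to 7.91 in the non-metastatic tumors. None of the metastatic tumors exceeded the non-metastatic median and 9 of the 14 non-metastatic tumors lay above every metastatic tumor, but the low ends of both groups met because dogs 22 and 26 had values of 3.04 and 2.66. The means of 3.74 ± 0.71 in metastatic and 5.32 ± 1.53 in the other tumors differed by -1.58 (SE 0.46), so that the metastatic signal was 0.334 times the non-metastatic (limma, adjusted p = 0.0185). The difference kept its direction but did not pass with age and size as covariates (-1.68; limma, adjusted p = 0.104), with the GAPDH difference (-1.74; limma, adjusted p = 0.0629) or with the name ending as a block (-1.89; limma, adjusted p = 0.508).

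IL6ST, which encodes gp130 and passes on the signals of interleukins 6, 11 and 27 among others, was higher in metastatic tumors. Its signal ran from 3.44 over 5.29 to 7.27 in the metastatic and from 3.19 over 4.12 to 5.11 in the non-metastatic group. As many as 7 metastatic tumors lay above every non-metastatic tumor, and 3 (dogs 8, 1 and 11) lay below the non-metastatic median. The means, 5.02 ± 0.99 for metastatic and 4.06 ± 0.60 for non-metastatic tumors, differed by 0.97 (SE 0.31), or 1.95-fold (limma, adjusted p = 0.0303). With the sample name ending as a block the difference turned to -0.34 (limma, adjusted p = 0.772), since dogs 1 and 8, the 2 metastatic tumors whose names do not end in T, had IL6ST values of 3.99 and 3.44.

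None of the ligands of this family passed. IL6 spread widely in both groups, from 3.29 over 5.02 to 9.84 in metastatic and from 2.36 over 6.54 to 8.40 in non-metastatic tumors, and the groups overlapped almost throughout. Its difference was -0.11 with a 95% interval from -1.71 to 1.50 (limma, adjusted p = 0.934), which leaves room for a large difference in either direction. IL6R, the receptor chain that binds interleukin 6, lay below the median signal in all tumors and differed by -0.07 (limma, adjusted p = 0.371). IL11 and IL27 also stayed below the median signal, and IL27RA, the receptor chain for interleukin 27, differed by 0.32 (limma, adjusted p = 0.518).

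IL4I1 is an L-amino acid oxidase secreted by antigen-presenting cells that was first found as a gene induced by interleukin 4. Its signal ran from 4.13 over 4.94 to 7.13 in metastatic and from 3.02 over 4.39 to 5.85 in non-metastatic tumors. The 3 highest values were those of the metastatic dogs 7, 3 and 6 (7.13, 6.73 and 6.50), and 12 of 13 metastatic tumors lay above the non-metastatic median. The means, 5.30 ± 0.92 for metastatic and 4.43 ± 0.65 for non-metastatic tumors, differed by 0.87 (SE 0.30), or 1.83-fold, close to the threshold (limma, adjusted p = 0.0444). The call was lost in 14 of the 27 fits that left out a tumor, with adjusted p from 0.0199 to 0.0746.

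**Figure D3:**
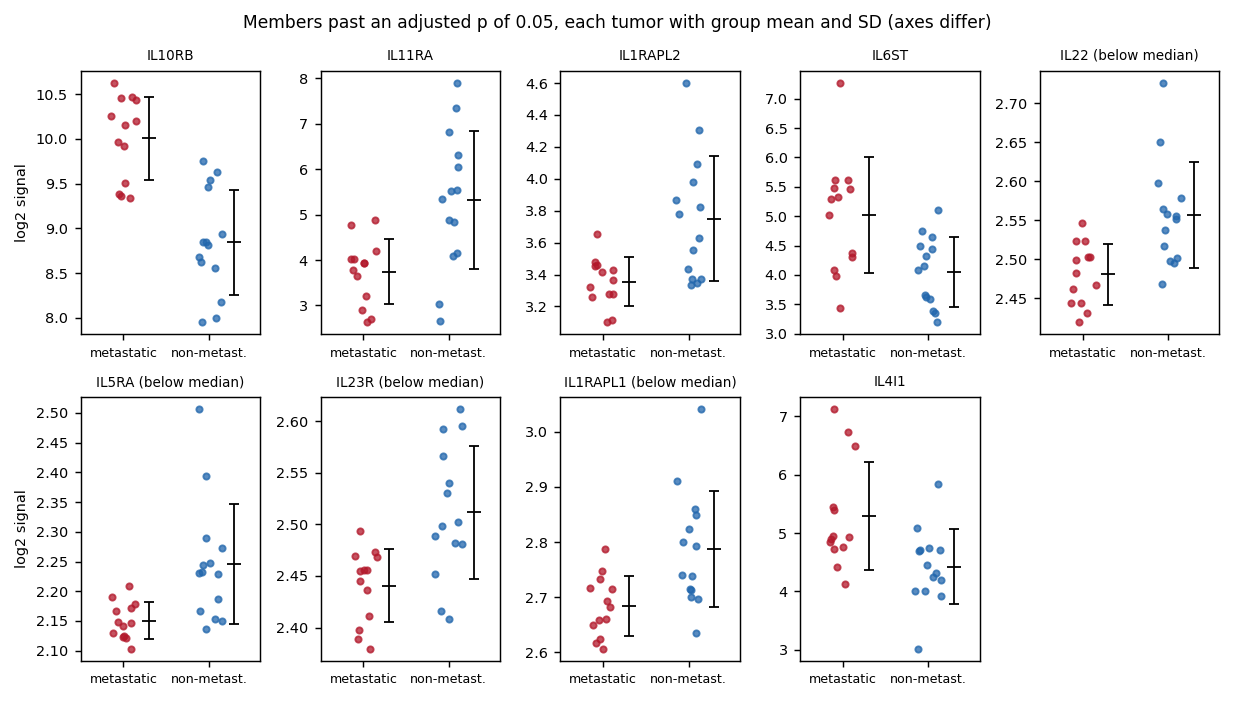
Log2 signal of the 9 members past an adjusted p of 0.05, with each point 1 tumor (13 metastatic in red at the left, 14 non-metastatic in blue at the right) and bars for the group mean and SD beside the points. The vertical axes differ: IL10RB, IL11RA, IL6ST and IL4I1 span more than 2 units, IL1RAPL2 less than 2, whereas IL22, IL5RA, IL23R and IL1RAPL1 span less than 0.5 and lie below the median signal throughout.

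The interleukin 1 family, with 18 members the largest, had no ligand that passed. IL1A, an alarmin stored in epithelial cells, ran from 3.91 over 5.02 to 8.18 in metastatic and from 3.08 over 4.17 to 9.27 in non-metastatic tumors, a difference of 0.66 (limma, adjusted p = 0.44). IL1B, the secreted product of inflammasome activation, was narrow in the non-metastatic group (3.86 to 4.35) and in most metastatic tumors, but reached 6.85 in dog 12 and 5.29 in dog 3; its difference was 0.21 (limma, adjusted p = 0.548), and its 2 other probe sets gave -0.35 and 0.59 (limma, adjusted p over all probe sets 0.0232 and 0.217). IL18 and IL33, both released from epithelial cells, differed by -0.20 and 0.16 (limma, adjusted p = 0.719 and 0.862). The antagonist IL1RN ran from 7.82 over 9.41 to 10.97 in metastatic and from 7.54 over 8.58 to 9.99 in non-metastatic tumors, and its difference of 0.65 did not pass (SE 0.34; limma, adjusted p = 0.17). The receptors IL1R1 and IL1R2 differed by -0.04 and -0.30, and neither passed. Called members of this family were IL1RAPL2 and IL1RAPL1, 2 accessory-like receptor proteins known from neurons, whose values are given with the other low members below.

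No member of the common gamma chain family, whose cytokines govern lymphocytes, passed the test among 15. This count includes IL13, IL13RA1 and IL13RA2, which do not use the common gamma chain. The smallest adjusted p was that of IL15RA, which presents interleukin 15 to neighbouring cells. IL15RA ran from 3.18 over 3.69 to 6.14 in the metastatic and from 3.10 over 3.46 to 3.87 in the non-metastatic tumors, so that 5 metastatic tumors (dogs 5, 3, 10, 6 and 9) lay above all others while the remaining 8 shared the non-metastatic range. Its difference was 0.70 (SE 0.27; limma, adjusted p = 0.0646), and it passed when dog 1, 4 or 8 was left out. IL15 itself differed by 0.10, and IL2RB, IL2RG and IL7R, chains of the receptors for interleukins 2, 15 and 7, by 0.28, 0.13 and -0.10, with intervals that included 0.

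In the interleukin 17 family 0 of 11 members passed. IL17B had a larger difference than all members but IL11RA. It ran from 3.75 over 3.97 to 8.07 in metastatic and from 3.99 over 5.29 to 11.53 in non-metastatic tumors, where 8 metastatic tumors lay below every non-metastatic tumor and the high metastatic value was that of dog 11. The difference was -1.42 (SE 0.62; limma, adjusted p = 0.108), and it passed only without dog 11 (adjusted p = 0.0451). IL17RE, a receptor chain for interleukin 17C, ran from 9.31 over 9.98 to 10.65 in metastatic and from 9.14 over 9.59 to 10.16 in non-metastatic tumors, and its difference of 0.39 lay at the edge of the threshold (SE 0.14; limma, adjusted p = 0.0541). The IL17RE difference passed when dog 6, 8, 11, 19, 21 or 24 was left out. IL17RA, the chain that the family shares, differed by -0.11, and IL17A and IL17F stayed below the median signal.

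The remaining members were few. IL16, a chemoattractant for CD4+ cells, and IL34, a ligand of the macrophage receptor CSF1R, differed by 0.46 and -0.57 without passing (limma, adjusted p = 0.442 and 0.298). IL12A and IL12B, the subunits of interleukin 12, differed by 0.23 and 0.22, and in each case the highest values belonged to a few metastatic tumors.

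The members of low signal that were called lower differed by small amounts. IL1RAPL2 ran from 3.10 over 3.37 to 3.65 in metastatic and from 3.34 over 3.71 to 4.60 in non-metastatic tumors, and 7 non-metastatic tumors exceeded every metastatic tumor (difference -0.39, SE 0.11; limma, adjusted p = 0.0195). IL22 ran from 2.42 over 2.48 to 2.55 in metastatic and from 2.47 over 2.55 to 2.73 in non-metastatic tumors, a difference of -0.08 (limma, adjusted p = 0.0328). IL5RA, a receptor chain of eosinophils, IL23R, the receptor chain specific for interleukin 23, and IL1RAPL1 differed by -0.10, -0.07 and -0.10 (limma, adjusted p = 0.0359, 0.0368 and 0.039). Apart from IL1RAPL2, which reached the median signal in 7 tumors, these probe sets never did so.

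Over the 27 tumors these 5 members fell as the upper quartile of the array rose. Pearson's r with the upper quartile was -0.86 for IL1RAPL2, -0.77 for IL1RAPL1, -0.74 for IL22, -0.61 for IL5RA and -0.56 for IL23R, with rho of -0.72, -0.67, -0.64, -0.60 and -0.62 (permutation test, p of r adjusted over all 15115 genes at most 0.014). Within the metastatic group the same r lay between -0.17 and -0.49, and within the non-metastatic group between -0.32 and -0.84. Of all 78 members 23 (29.5%) had a correlation with the upper quartile at an adjusted p under 0.05, against 30.5% of all genes. Of the 33 members below the median signal, 17 (51.5%) had such a correlation, each negative, with IL3 (r = -0.87) and IL17A (r = -0.80) among them, against 56.6% of all 4163 genes below it. Of these 4163 genes, 309 were lower in the metastatic group and 5 higher. When the upper quartile was added to the model as a covariate, IL10RB (1.19; limma, adjusted p = 0.0112) and IL11RA (-2.53; limma, adjusted p = 0.00704) still passed and the other 7 called members did not, with IL1RAPL2 at -0.02. After a new quantile normalization IL22, IL1RAPL1, IL23R and IL5RA differed by -0.02, -0.03, -0.02 and -0.06 (limma, adjusted p = 0.349, 0.427, 0.490 and 0.134). They did not pass after centring on array medians either (limma, adjusted p = 0.505, 0.292, 0.664 and 0.385). IL1RAPL2 passed under both scalings (limma, adjusted p = 0.0387 and 0.0203). The part of array brightness in the lower values was not tested further.

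**Figure D4:**
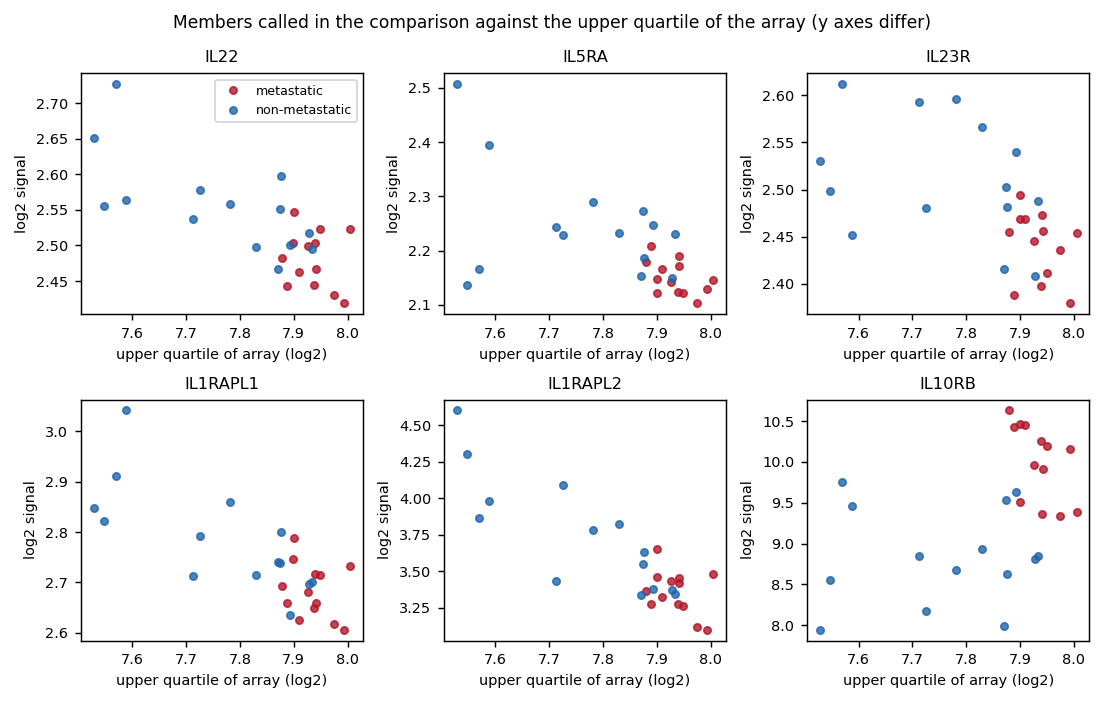
Log2 signal of 6 of the called members (vertical axes, which differ) against the upper quartile of all log2 values of the same array (horizontal axes), with each point 1 tumor, metastatic in red and non-metastatic in blue. IL22, IL5RA, IL23R, IL1RAPL1 and IL1RAPL2 slope down from the non-metastatic arrays of low upper quartile, whereas metastatic IL10RB values lie above most non-metastatic ones at the same upper quartile.

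Several members followed markers of leukocytes from tumor to tumor, whether or not they differed between the groups. For each of 8 cell marker lists, none of which holds a member, a score was formed as the mean z score of its genes, and each of the 78 members was correlated with each score, 624 pairs in all, with p-values from 100000 permutations adjusted over these pairs. Adjusted over all 15115 genes and the 8 scores instead, every member named below as passing still passed, and 8 members (10.3%) passed for the T and NK cell score, 5 (6.41%) for the myeloid, 4 (5.13%) for the smooth muscle and 4 (5.13%) for the mitosis score, against 4.00%, 3.45%, 9.12% and 8.71% of all genes. For B and plasma cells 2 members passed, for fibroblasts 1, and for neutrophils and endothelium 0, against 1.65%, 2.69%, 0.635% and 1.52% of all genes. IL2RB, the interleukin 2 and 15 receptor chain of T and NK cells, followed the T and NK cell score with r = 0.83 (permutation p = 1e-05, the smallest these permutations can give; adjusted p = 0.00156) and rho = 0.90 (permutation p = 1e-05). Its r was 0.94 within the metastatic and 0.70 within the non-metastatic group, and 0.73 without dogs 3 and 22, the tumors farthest from the median score. The other IL2RB probe sets, which reached at most 3.12, had r of 0.39, 0.21 and 0.24 with the one used. IL2RG had r = 0.82 with this score (permutation p = 9e-05, adjusted p = 0.00624) but rho = 0.39 (permutation p = 0.0436), and without dogs 3 and 22 its r was 0.77 and its rho 0.24. IL21, a cytokine of follicular helper T cells, had r = 0.89 (adjusted p = 0.00208), and this fell short of the threshold without those dogs (r = 0.58, permutation adjusted p = 0.091), in which IL21 stood at 4.10 and 4.12 against at most 2.58 elsewhere. IL1RAP had r = 0.69 and only 0.28 without them. IL17RC, a receptor chain for interleukins 17A and 17F that stayed below the median signal, ran against the score (r = -0.75, rho = -0.84, permutation adjusted p = 0.00156, and r = -0.76 without dogs 3 and 22). This holds for the probe set used, with which the other IL17RC probe sets had r of only 0.10 and 0.14.

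IL16 followed the myeloid score most closely, with r = 0.81 (permutation p = 1e-05, adjusted p = 0.00156) and rho = 0.68 (permutation p = 0.00016), 0.82 within metastatic and 0.80 within non-metastatic tumors, and 0.77 without dogs 10 and 22. IL1RN (r = 0.59, rho = 0.59, permutation adjusted p = 0.0312) and IL10RB (r = 0.61, rho = 0.64, permutation adjusted p = 0.0295) also followed it. The mean level of the 17 myeloid markers ran from 7.88 to 10.12 in the metastatic and from 7.12 to 10.15 in the non-metastatic group, and with the myeloid score in the model the IL10RB difference was 0.95 (limma, adjusted p = 0.00296). IL17B ran against the fibroblast score (r = -0.64, rho = -0.44, permutation adjusted p = 0.0305), but r was -0.15 in the metastatic and -0.89 in the non-metastatic group and -0.35 without dogs 8 and 18. Without dog 18 alone, the tumor of highest IL17B, r was -0.39, and without dog 8 alone it was -0.64. With the neutrophil score no member passed.

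Of the 9 members called in the comparison, IL4I1, IL10RB, IL6ST and IL11RA also moved with the smooth muscle score, and IL10RB, IL4I1 and IL11RA with the mitosis score. The genes of both lists differ between the groups themselves. Besides IL10RB with the myeloid score, IL4I1 followed the T and NK cell score (r = 0.70, permutation p adjusted over all genes 0.0155). IL6ST followed the B and plasma cell score (r = 0.60, permutation p adjusted over all genes 0.0413). For B and plasma cells no member passed without the tumors farthest from the median score. IL4I1 ran against the smooth muscle score with r = -0.85 (permutation p = 1e-05, adjusted p = 0.00156) and rho = -0.78 (permutation p = 1e-05), and it did so within both groups, at -0.83 in metastatic and -0.75 in non-metastatic tumors, and at -0.76 without dogs 6 and 7. IL10RB and IL6ST also ran against this score (r = -0.67 and -0.63, permutation adjusted p = 0.0112 and 0.0206), with r = 0.06 and -0.31 within the metastatic and -0.79 and -0.71 within the non-metastatic tumors, while IL11RA ran with it (r = 0.61, permutation adjusted p = 0.0305). The mean level of the 11 smooth muscle markers ran from 7.58 to 10.17 in the metastatic and from 8.52 to 11.31 in the non-metastatic group. With this score in the model 0 members passed: the difference was 0.86 for IL10RB (limma, adjusted p = 0.101), -0.77 for IL11RA, 0.34 for IL6ST and -0.26, now lower, for IL4I1 (limma, adjusted p = 0.527). The share of all genes that passed in this model is not given, so the count cannot be called particular to the members. With the mitosis score IL10RB had r = 0.70 (permutation adjusted p = 0.00468), IL4I1 0.59 and IL11RA -0.66; within the metastatic tumors these were 0.26, 0.48 and -0.03, and within the non-metastatic tumors 0.46, 0.27 and -0.69. The mean of the 19 mitosis markers ran from 5.72 to 9.48 in the metastatic and from 3.91 to 7.81 in the non-metastatic group. The part of the smooth muscle and mitosis genes in these differences was not tested further.

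**Figure D5:**
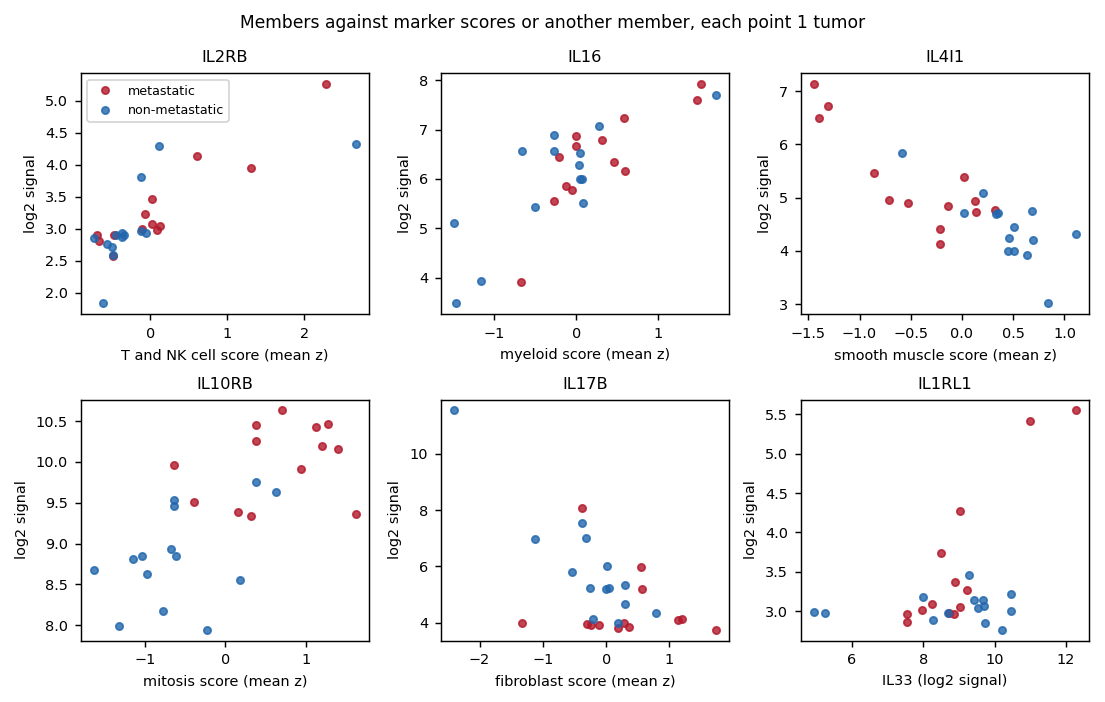
Log2 signal of 6 members (vertical axes) against a marker score, given as the mean z score of the listed genes, or in the last panel against IL33 in log2 signal, with each point 1 tumor, metastatic in red and non-metastatic in blue. IL2RB rises with the T and NK cell score and IL16 with the myeloid score in both groups, IL4I1 falls with the smooth muscle score in both groups, IL10RB rises with the mitosis score mainly between the groups, IL17B is highest in dog 18 at 11.53, and IL1RL1 is raised in the metastatic tumors of highest IL33.

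Of 19 pairs of ligand, receptor chain, decoy or antagonist, 4 were correlated over the tumors at an adjusted p under 0.05, among them 2 of the 5 pairs of a ligand and its receptor chain (IL7 with IL7R and IL33 with IL1RL1). How often pairs of other genes were correlated was not counted, so these counts cannot be called particular to such pairs. IL2RB and IL2RG, 2 chains of one receptor, had r = 0.76 (permutation p = 2e-05, adjusted p = 0.00038) and rho = 0.42 (permutation p = 0.0287), with r at 0.90 within metastatic and 0.61 within non-metastatic tumors, and 0.60 without dogs 3 and 22. IL7, a survival factor of lymphocytes, and its receptor IL7R had r = 0.58 (permutation p = 0.00145, adjusted p = 0.0138) and rho = 0.59 (permutation p = 0.00152), with 0.68 in metastatic and 0.25 in non-metastatic tumors. IL1A and IL1B had r = 0.58 (permutation p = 0.00613, adjusted p = 0.0388) and rho = 0.45 (permutation p = 0.0204), with 0.81 in metastatic and 0.23 in non-metastatic tumors.

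IL33 and its receptor IL1RL1 had r = 0.51 (permutation p = 0.00857, adjusted p = 0.0407) but rho = 0.35 (permutation p = 0.0724). Within the metastatic tumors r was 0.89, and within the non-metastatic tumors 0.11, a contrast that was not tested. IL1RL1 stayed below the median signal of 3.66 in every non-metastatic tumor (at most 3.46). It reached this level only in the metastatic dogs 5, 2, 12 and 4, so these correlations cannot be set against each other. In the metastatic tumors of highest IL33, dogs 5 and 2, IL33 was 12.28 and 10.98 and IL1RL1 5.55 and 5.41, whereas the non-metastatic dogs 27 and 14, with IL33 at 10.46 and 10.45, had IL1RL1 at 3.22 and 3.01. The antagonist IL1RN followed neither IL1A (r = 0.25) nor IL1B (r = 0.16), and the 2 chains of the interleukin 10 receptor were not correlated detectably (r = 0.17, permutation adjusted p = 0.491).

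No member passed the threshold for grade or tumor size. Between grade III and grade II tumors, with lymph node status in the model, 0 of 78 members and 0% of all genes passed (smallest adjusted p of a member 0.738; 5 members at an unadjusted p under 0.05). The nearest were IL20RB, higher by 0.33 in grade III, IL18, higher by 0.84, and IL23R, higher by 0.05. Per doubling of tumor diameter 0 members and 0% of all genes passed (smallest adjusted p 0.639; 4 members unadjusted), with IL20RB at 0.21, the decoy IL1R2 at 0.50 and IL1RL1 at 0.34 the nearest. Whether the lymph node difference itself depended on grade was tested as an interaction, and 0 members and 0% of all genes passed (smallest adjusted p 1.00; 4 members unadjusted). Within grade II or grade III tumors alone 0 members passed, although the IL10RB difference was 1.40 and 1.01 (limma, adjusted p = 0.0554 and 0.0601) and that of IL11RA -2.60 and -0.97. The share of all genes that passed within a grade is not given here.

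Among lists of genes that act downstream of the receptors at most 1 gene per list passed, where 10.6% of all genes were higher and 7.27% lower. Of 10 measured Janus kinase and STAT genes 1 was higher in metastatic tumors and 0 lower: STAT4, which carries the signals of interleukins 12 and 23, averaged 8.27 ± 0.83 in metastatic tumors and 6.81 ± 1.19 in non-metastatic ones (difference 1.46; limma, adjusted p = 0.0119). STAT3, the main STAT of the gp130 receptors, differed by -0.05. Of 15 feedback regulators 1 was higher, PTPN11, a phosphatase that binds gp130 (0.81; limma, adjusted p = 0.0111), while SOCS3 at 0.11 did not pass. Of 18 genes between the interleukin 1 receptors and NF-kappaB 1 was higher, the kinase IRAK4, at 6.68 ± 0.45 in metastatic and 5.52 ± 0.54 in non-metastatic tumors (difference 1.16; limma, adjusted p = 0.000423), with MYD88 at 0.45 not passing. Of 18 other cytokines and receptor chains that share subunits with the interleukin receptors, such as LIFR and OSMR, 0 passed. The median differences of these 4 lists were 0.02, 0.00, 0.03 and 0.05, against -0.002 over all genes.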

How the data were processed

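Per the labels and the methods, the authors processed the 27 arrays in Partek Genomic Suite with the gcRMA workflow (RMA background correction, quantile normalization, median polish). The deposited values are log2 signals and were used as given. After removal of 175 controls from the 43035 probe sets, symbols were taken from the platform's probe table (29254 probe sets with 1 symbol, 439 with several, 13167 with none). Of the 78 symbols 77 matched the RefSeq gene table. The group comparison used limma 3.58.1 (lmFit, eBayes; R 4.3.3) over all 42860 probe sets, with Benjamini-Hochberg adjustment over 15115 genes and a threshold of 0.05. The scripts were tested on simulated data. Grades are those of the labels; for dog 25 the study's table gives another grade, which was an alternative. Named members are those past the threshold, the 6 of largest difference not passing, and the leading member of each family. Those with the most extreme correlations and those of smallest p for grade, tumor size and the interaction are named too. So are IL10RB, IL6, IL6R, IL6ST, IL1B and IL10. Other members are named for their high values or low signal, chosen after these were seen. Alternatives covered scaling, weights, probe sets, covariates, grade, name ending, thresholds and single tumors. The number of arrays limits the precision. Members and lists were chosen with earlier results of these data known.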

Additional observations from a re-analysis of the deposited data

How the results depend on the processing

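With 3 members higher and 6 lower as reported, the counts of members higher were 1 after a new quantile normalization, with the myeloid score, with age and size, with the upper quartile or with the GAPDH difference as covariates, and at the study's thresholds, and 0 with the smooth muscle score, in grade II or grade III tumors alone, and with the name ending as a block. They were 4 under 9 alternatives, among them array weights, centring, grade as a block, the probe set of largest difference and leaving out dogs 1 and 8, under which IL15RA passed too. The counts of members lower were 2 after a new quantile normalization, after centring on array medians and with the GAPDH difference, 3 with array weights, 1 among genes above the median brightness and with the upper quartile, 11 with the T and NK cell score, 9 with the probe set of largest difference, and 0 with the smooth muscle score, with age and size, in either grade alone, with the name ending and at the study's thresholds. Restricting the test to genes that reached the median signal, chosen after seeing the data, left 2 lower. Shares of all genes under each alternative are not given, so these changes cannot be called particular to the members. The cause of these changes was not tested. The fits within a grade held fewer tumors, and the tests under a filter fewer genes. Leaving out each tumor in turn gave 2 to 5 members higher, the most without dog 8, and 2 to 9 lower, with 2 without dog 9 or dog 10 and 3 without dog 17 or dog 20. IL10RB, IL11RA, IL1RAPL2 and IL6ST passed in all 27 of these fits, while IL4I1 was lost in 14, IL1RAPL1 in 12, IL23R in 8, IL5RA in 7 and IL22 in 4. Across the other alternatives the adjusted p of IL10RB ran from 0.000113 to 0.232 (19 of 23 on the same side) and that of IL11RA from 0.000971 to 0.508 (17 of 23), while IL6ST and IL4I1 passed under 14 of 23 each. The direction turned for IL4I1 with the smooth muscle score (-0.26) and for IL6ST with the name ending (-0.34). Without the 2 tumors farthest from the median score, the members correlated were 5 instead of 8 for the T and NK cell score, 0 instead of 4 for B and plasma cells, 3 instead of 7 for myeloid cells, 0 instead of 2 for fibroblasts and 3 instead of 5 for smooth muscle, and among members that reached the median signal, chosen after seeing the data, 1 instead of 0 for endothelium. How many of all genes were correlated in these 2 alternatives was not counted. The adjustment of these correlations over all genes and the values of IL17B without dog 8 or dog 18 alone were also chosen after seeing the data. Grade and tumor size gave 0 members under all 12 alternatives each and under every left-out tumor. Brightness limits what can be said of the 33 members below the median signal.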
